A study of Homo sapiens with 6 samples.

Results

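MicroRNA loci are transcribed as long primary transcripts, which nuclear and cytoplasmic enzymes cut to a hairpin and then to the short mature microRNA that guides repression of messenger RNAs. Bases 2 to 8 of the mature microRNA, the seed, pair with the target. An expression array labels long RNA, so a probe at such a locus reads the locus transcript or an overlapping host transcript and not the mature microRNA. Here the 22 microRNA locus probes that were detected on at least 2 of 6 arrays are described, out of 561 probes on the array whose annotated symbol is a microRNA gene. Detection means a detection p-value under 0.01, which compares a probe with the negative controls of its array. The members were chosen by these detection p-values, so how often each was detected is a description. Among them is MIR21, a locus widely studied in lung and other cancers, which was detected on 4 arrays.

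RNA of 2 established human lung cancer lines was profiled on Illumina HumanHT-12 v4 arrays, with 1 array per group. H460, from a large cell lung cancer, carried pSIn-E2F-LZTFL1-ires-GFP-puro or pSin-E2F-GFP-puro and was untreated. HCC95, from a squamous lung cancer, carried either vector and was labelled as treated with TGFβ, a growth factor of epithelial plasticity, or as untreated. Both vectors carry GFP and a puromycin resistance gene, so all 6 groups share these, and the sources used here give no dose or time for TGFβ. LZTFL1 controls how the BBSome moves proteins in and out of cilia, and the design asks how its vector alters expression in each line, and in HCC95 with and without TGFβ.

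No value has a replicate within its group. All levels below are log2 intensities after background correction, an added offset of 16 and quantile normalization. Between 14136 and 16423 probes were detected on an array, fewest on the arrays labelled TGFβ. The lowest level among detected probes, called the detection floor here, was 5.33 to 5.70. The only LZTFL1 probe read 6.38 and 6.35 on the H460 arrays labelled LZTFL1 and GFP. In HCC95 it read 5.06 with TGFβ and 5.07 untreated on the arrays labelled LZTFL1, and 5.39 and 5.74 on those labelled GFP. It was not detected on either HCC95 array labelled LZTFL1. Its position relative to the vector insert is not known here, so it does not check the labels, and arrays are named by their labels throughout. Of 4 measured squamous markers, none was detected in H460 and all were in HCC95, and of 5 epithelial markers CDH1 and EPCAM were undetected in H460. White blood cell markers were detected for 1 of 4 genes (CD14) in H460 and none in HCC95, fibroblast markers for at most 2 of 4, and endothelial markers for at most 1 of 3 on any array.

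For each of the 6 loci that the results turn on, 1 mature sequence is shown first, because it says which microRNA the probe name stands for. MIR205, MIR25 and MIR1228 also have a listed mature sequence from the other arm of the hairpin, which is not shown. The lines below are RefSeq sequences (GRCh38.p14), written 5′ to 3′ with the seed in capitals. The last line is the hairpin of MIR21 with the mature microRNA in capitals, the part of the locus transcript that the processing enzymes cut out.
miR-21-5p, chr17:59841273-59841294, plus strand: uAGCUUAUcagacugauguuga
miR-205-5p, chr1:209432166-209432187, plus strand: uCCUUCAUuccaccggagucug
miR-1282, chr15:43793732-43793751, minus strand: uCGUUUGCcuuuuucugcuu
miR-25-3p, chr7:100093571-100093592, minus strand: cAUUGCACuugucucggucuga
miR-586, chr6:45197734-45197755, minus strand: uAUGCAUUguauuuuuaggucc
miR-1228-5p, chr12:57194504-57194524, plus strand: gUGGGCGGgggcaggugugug
MIR21 hairpin, chr17:59841266-59841337, plus strand: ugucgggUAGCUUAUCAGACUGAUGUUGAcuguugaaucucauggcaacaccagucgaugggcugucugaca

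Of the 22 members, 20 had a mature sequence in the RefSeq table and 18 a hairpin. Their 32 mature sequences had 32 different seeds, so no pair of these 20 members shared a listed seed. Outside the members, miR-21-5p shares its seed with miR-590-5p, and miR-25-3p shares AUUGCAC with 5 other listed microRNAs, among them miR-32-5p. The median G and C content of the hairpins was 50.6% for the 18 members and 48.2% for the 438 other loci with a hairpin. The members lay on 14 chromosomes. MIR300 and MIR1185-1, of the imprinted microRNA cluster on chromosome 14, were the closest pair, 1531 bases apart. A gene on the same strand spanned 13 of the members, and 5 lay in no other gene of the reference table, which does not resolve exons.

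Few microRNA loci were read at all. The 22 members were 3.92% of the 561 microRNA locus probes, against 36.7% of all 47323 probes detected on as many arrays. No array detected 517 of the microRNA probes, and 22 more were detected on exactly 1 array. MIR1185-1, MIR1228, MIR129-2 and MIR586 were detected on all 6 arrays, and MIR345, MIR488, MIR599 and MIR607 on 5. MIR1282, MIR205, MIR21, MIR300 and MIRLET7D were detected on 4 arrays, and MIR125B2, MIR130A, MIR1909, MIR25, MIR373 and MIR574 on 3. MIR1204, MIR635 and MIR638 were detected on 2. Of 9 probes at loci of let-7, a family of growth-restraining microRNAs, only MIRLET7D was a member. Of 10 probes at loci of the miR-17 cluster and its copies only MIR25 was. None of the 5 probes at loci of the miR-200 family, which holds cells epithelial, was a member. Whether the mature microRNAs of these families were present was not measured. These families were chosen after the values were seen.

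The detection threshold passed close to several members. Just inside it, the second-lowest detection p-value was 0.00779 for MIR635 and 0.00649 for MIR1909 and MIR638. Just outside it, it was 0.0104 for MIR221, MIR564 and MIR572. Most members were dim: for 14 the highest value lay within 1 of its array's detection floor, and for 8 it lay further above. The range over the 6 arrays was 2 or more for MIR205, MIR21, MIR1204 and MIR1282, and under 1 for 7 members. The plot of the values of every member shows this crowding at the floor.

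**Figure D1:**
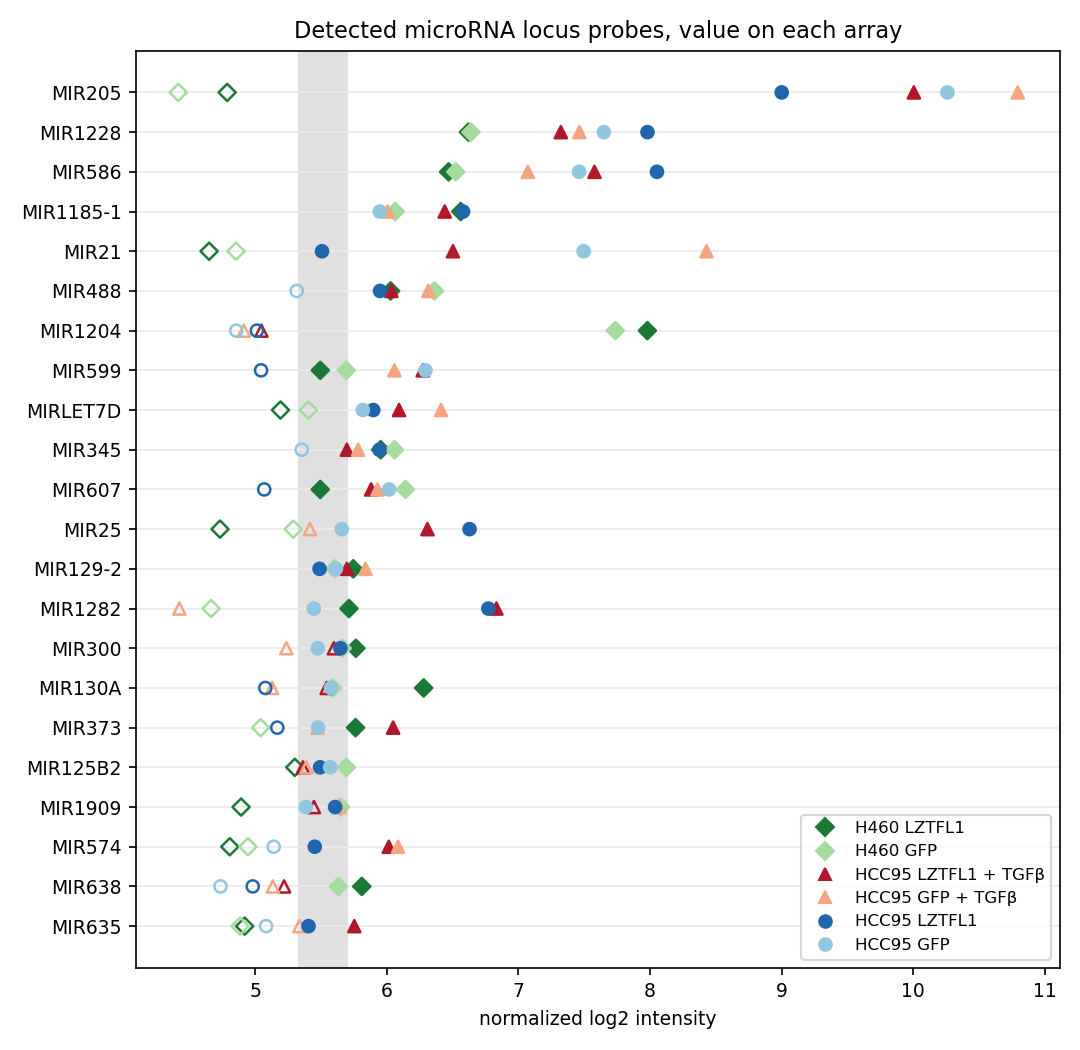
Normalized log2 intensity (x axis) of each of the 22 member probes (rows, ordered by mean) on the 6 arrays, 1 point per array; open points were not detected and the grey band spans the detection floors, 5.33 to 5.70. MIR205 reaches 10.79 in HCC95 and is undetected in H460, MIR1204 shows the opposite pattern, and most other members sit within 1 of the band.

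MIR205 was the brightest member. Its microRNA, miR-205, is a marker of squamous epithelium and squamous lung cancer that represses the mesenchymal factors ZEB1 and ZEB2. The probe read 10.00 with TGFβ and 9.0 untreated in HCC95 labelled LZTFL1, against 10.79 and 10.26 in HCC95 labelled GFP. In H460 it read 4.79 on the array labelled LZTFL1 and 4.41 on the GFP array and was detected on neither. Both H460 values lay far below all 4 HCC95 values, and the HCC95 arrays labelled LZTFL1 lay below both labelled GFP. MIR205HG, the host transcript annotated over the locus on the same strand, was read by 1 probe that was detected on no array, with values of 4.53 to 4.86.

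MIR21 followed the same order within HCC95. Its microRNA, miR-21, is raised in many carcinomas and represses tumour suppressors such as PDCD4. The probe read 6.50 with TGFβ and 5.51 untreated in HCC95 labelled LZTFL1, against 8.43 and 7.50 in HCC95 labelled GFP. It read 4.65 in H460 labelled LZTFL1 and 4.85 in H460 labelled GFP, undetected on both. In HCC95 the groups by vector did not overlap, while the highest array labelled LZTFL1 was the one labelled TGFβ. Against all probes of the same array, MIR21 ranked at the 76.7 percentile with TGFβ and the 67.9 percentile untreated with LZTFL1, and at the 88.8 and 83.4 percentiles with GFP.

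MIR1282 and MIR25 ran the other way in HCC95. MIR1282, a locus opposite in strand to SERF2, read 6.83 with TGFβ and 6.77 untreated in HCC95 labelled LZTFL1, against 4.42 and 5.44 in HCC95 labelled GFP, where the TGFβ array did not detect it. In H460 it read 5.71 on the array labelled LZTFL1 and was not detected on the GFP array, at 4.66. MIR25, the locus of a microRNA that sits with miR-106b and miR-93 in the host gene MCM7, read 6.31 with TGFβ and 6.63 untreated in HCC95 labelled LZTFL1. In HCC95 labelled GFP it read 5.42 with TGFβ, undetected, and 5.66 untreated. H460 detected MIR25 on neither array, at 4.73 with LZTFL1 and 5.29 with GFP. For both loci the HCC95 arrays labelled LZTFL1 lay above those labelled GFP with no overlap. Such separation of 2 arrays from 2 was common, with 9 of the 19 members that entered the HCC95 fits and 40.4% of all 15587 probes not overlapping.

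MIR586, MIR1228 and MIR1204 lay apart between the lines. MIR586, in SUPT3H, read 6.47 and 6.52 in H460 labelled LZTFL1 and GFP, and 7.07 to 8.05 on the HCC95 arrays. MIR1228, in the lipoprotein receptor gene LRP1, read 6.62 and 6.64 in H460, and 7.32 to 7.98 in HCC95. MIR1204, inside the span of the long noncoding RNA PVT1 near MYC, read 7.98 and 7.74 in H460 labelled LZTFL1 and GFP and 4.85 to 5.05 in HCC95, where it was not detected. None of these 3 loci overlapped between the lines, and neither did 13 of the 22 members nor 64.3% of all 17351 probes. The 13 include the 6 members detected on no H460 array and the 2 detected on no HCC95 array, MIR1204 and MIR638. These entered through 1 line only, so the detection rule itself favoured their separation, which is no support for a line difference. MIR1185-1 lay between 5.95 and 6.58 on the 6 arrays, MIR488 between 5.31 and 6.36 and MIRLET7D between 5.19 and 6.41, and these ranges of the lines overlapped for all but MIRLET7D. On arrays labelled LZTFL1, MIR1185-1 read 6.44 in HCC95 with TGFβ, 6.58 in untreated HCC95 and 6.56 in H460. With the GFP label it read 6.01, 5.95 and 6.06 in the same order.

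To ask what the vector did in HCC95, a limma model was fitted to all 15587 probes detected on at least 2 of the 4 HCC95 arrays, with the TGFβ label as a term. With 1 residual degree of freedom the difference of the effect between the TGFβ-labelled and untreated pair is the error, and it is moderated by probes of like brightness. The p-values therefore say nothing of the spread between cultures. Adjusted p-values below are limma's with Benjamini-Hochberg adjustment over all probes tested.

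The arrays labelled LZTFL1 had less MIR21 and MIR205 and more MIR1282 and MIR25. Of 19 members tested, 4 passed an adjusted p of 0.05, 2 higher and 2 lower, where 5.7% of all probes passed, 2.57% higher (400) and 3.14% lower (489). Median scaling gave 134 higher and 555 lower. MIR21 averaged 6.00 in HCC95 labelled LZTFL1 and 7.96 in HCC95 labelled GFP, a log2 difference of -1.96 (SE 0.199, adjusted p = 1.60e-06). That is 3.88-fold lower, and without background correction the difference was -1.07. MIR205 averaged 9.50 with the LZTFL1 label and 10.53 with the GFP label, and it fell by 1.02 (SE 0.143, adjusted p = 1.01e-04). MIR1282 averaged 6.80 with the LZTFL1 label and 4.93 with the GFP label, and it rose by 1.87 (SE 0.275, adjusted p = 1.88e-04), or by 0.78 without background correction and 1.15 with an offset of 50. MIR25 averaged 6.47 with the LZTFL1 label and 5.54 with the GFP label, and it rose by 0.93 (SE 0.243, adjusted p = 0.0246).

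The other 15 members tested did not pass, with differences from -0.52 (MIR599) to 0.55 (MIR586, adjusted p = 0.0774). The interval of MIRLET7D was -0.62 to 0.38 and that of MIR1228 -0.29 to 0.48, so a moderate change in either direction lies within both. The median difference was 0.12 over the 19 members and 0.0046 over all probes. MIR1282 and MIR25 were detected on only 3 of the 4 arrays, so their differences rest on a value below the detection limit. MIR25 was not called without background correction (0.36, adjusted p = 0.0563), with median scaling (0.83, 0.0606) or without the mean-variance trend (0.0743), and the last setting also ended the call of MIR205 (adjusted p = 0.0786). Without the treatment term none of the 4 was called.

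Squamous markers were read beside MIR205 in the same fit. KRT14, a basal keratin, fell by 1.60 with the LZTFL1 label (adjusted p = 6.11e-08), and DSG3, a desmosome cadherin, fell by 1.05 (adjusted p = 1.61e-04). KRT5, the partner keratin of KRT14, differed by 0.0054 (adjusted p = 0.986), and PKP1, a desmosome plaque protein, by -0.30 (adjusted p = 0.142). The summed signal of the 4 was 12325 with TGFβ and 12832 untreated with the LZTFL1 label, against 12384 and 16748 with the GFP label. The part of these markers in the MIR205 difference was not tested.

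**Figure D2:**
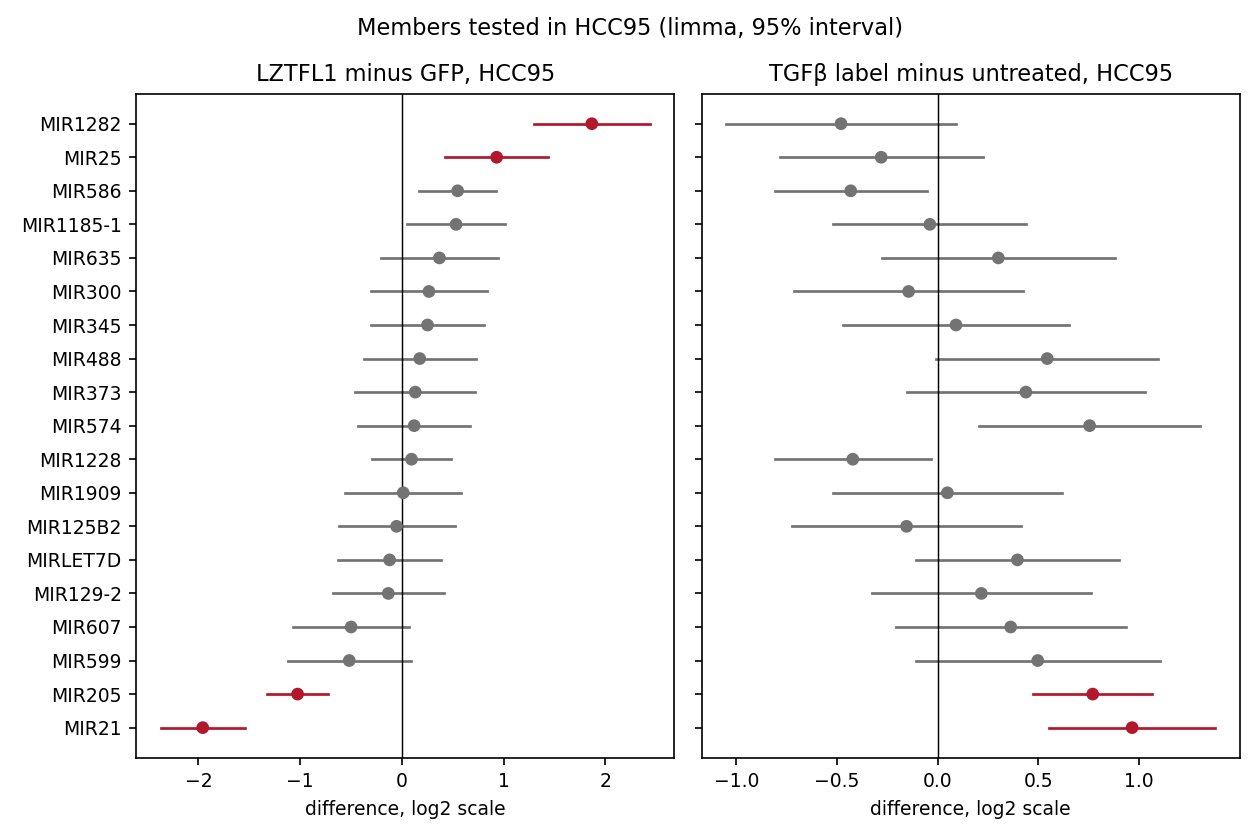
Log2 difference (x axis) with its 95% interval from the limma fits on the 4 HCC95 arrays for the 19 members tested, LZTFL1 minus GFP on the left and TGFβ label minus untreated on the right; red marks an adjusted p under 0.05. MIR21 and MIR205 are negative on the left (-1.96 and -1.02) and positive on the right (0.96 and 0.77).

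Single pairs of arrays, which allow no test, gave the sizes within each context. In a pair, an undetected value was raised to its array's detection floor, and the difference is then a bound. Between the HCC95 arrays labelled TGFβ, 2 of 16 members that entered were past 2-fold, beside 1.34% of all probes. MIR21 was 3.80-fold lower with LZTFL1 (-1.93) and MIR1282 at least 2.20-fold higher. Between the untreated HCC95 arrays, 3 of 20 were past 2-fold, beside 1.03% of all probes. MIR21 was 3.97-fold lower (-1.99), MIR205 2.39-fold lower (-1.26) and MIR1282 2.51-fold higher (1.33) on the array labelled LZTFL1.

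The floor limits what these pairs can show. The untreated MIR21 difference of -1.99 was close to 2.16, the most that could be measured before the array labelled LZTFL1 reached its floor, and the MIR1282 difference of 1.33 was close to its own limit. MIR205, far above the floor, could have shown a difference of up to 4.93. Of the 16 members with a difference in both HCC95 pairs, which share no array, 9 had the same sign in both (56.3%), against 63.9% of 14749 probes. Without background correction the MIR21 difference was -1.21 with TGFβ and -0.93 untreated.

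**Figure D3:**
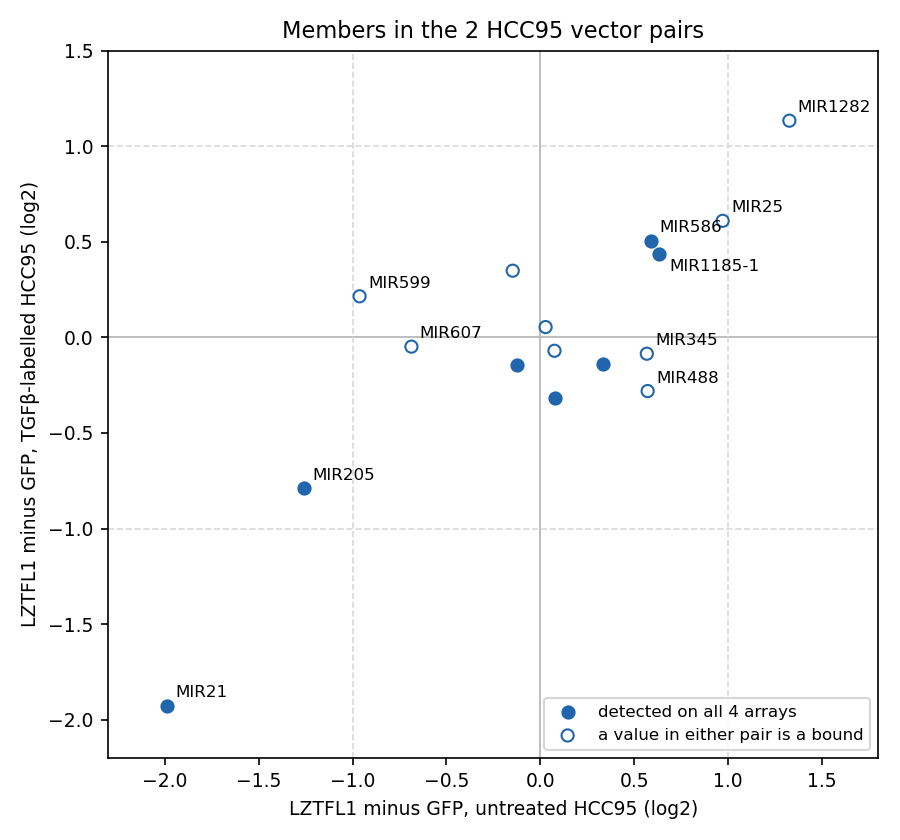
LZTFL1 minus GFP (log2) for the 16 members with a value in both HCC95 pairs, untreated on the x axis and TGFβ-labelled on the y axis; open points have a bound in at least 1 pair and dashed lines mark 2-fold. MIR21 lies lowest on both axes (-1.99 and -1.93) and MIR1282 highest (1.33 and 1.13), with most other members around 0.

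In H460 the vector pair showed no member past 2-fold among 16 that entered, beside 0.156% of all probes. The 6 members detected on neither H460 array included MIR21, MIR205 and MIR25, so no difference could be measured for these loci in H460. MIR130A was higher by 0.69 and MIR607 lower by 0.65 on the array labelled LZTFL1, with no replicate to set these differences against.

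A limma fit of the vector effect shared by the H460 pair and both HCC95 pairs called none of the 22 members, where 0.00576% of 17351 probes passed (1 higher and 0 lower; 3 and 8 with median scaling). At an unadjusted p under 0.05 it had 5 members, beside 9.65% of all probes. MIR1282 had a shared difference of 1.59 (adjusted p = 0.221) and MIR21 of -1.37 (adjusted p = 0.285). MIR1185-1, detected on all 6 arrays, had a shared difference of 0.52 (adjusted p = 0.448). MIR21 was undetected on both H460 arrays and MIR1282 on the H460 array labelled GFP, so the H460 pair adds no measured difference of MIR21. Median scaling called both, with adjusted p = 0.00749 for MIR1282 and 0.0385 for MIR21, on the same undetected values. Leaving out the H460 pair gives the HCC95 vector fit again, with its 4 members called. Leaving out either HCC95 pair called 0.

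Whether the vector effect differed between H460 and HCC95 was tested as an interaction in limma. None of the 22 members passed, where 0.213% of all probes did (31 higher and 6 lower; 20 and 0 with median scaling). At an unadjusted p under 0.05 there were 3 members, beside 9.57% of all probes. The H460 effect minus the HCC95 effect was 1.40 for MIR205 (SE 0.299, adjusted p = 0.0519) and 1.75 for MIR21 (SE 0.393, adjusted p = 0.0667). Both loci were undetected in H460, so a lower level there could not have been measured. With no detection filter MIR205 (adjusted p = 0.0043) and MIR21 (adjusted p = 0.0133) were called.

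The TGFβ label in HCC95 went with more MIR21 and MIR205, opposite in sign to the LZTFL1 label. In the limma fit on the same 4 arrays, with vector as a term, 2 of 19 members passed, both higher, where 5.03% of all probes passed, 2.65% higher (413) and 2.38% lower (371). Median scaling gave 163 higher and 592 lower. MIR205 averaged 10.40 with TGFβ and 9.63 untreated, and it rose by 0.77 (SE 0.143, adjusted p = 0.00216). MIR21 averaged 7.47 with TGFβ and 6.50 untreated, and it rose by 0.96 (SE 0.199, adjusted p = 0.00569). The LZTFL1 and TGFβ comparisons use the same 4 arrays, so these 2 differences are not independent observations of the loci. For both loci the TGFβ and untreated values overlapped when the vectors were pooled.

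Both loci were higher with TGFβ under each vector. In HCC95 labelled LZTFL1, the TGFβ array had 1.00 more MIR21 than the untreated array, and in HCC95 labelled GFP 0.93 more. MIR205 was higher with TGFβ by 1.00 with the LZTFL1 label and by 0.53 with the GFP label. With the LZTFL1 label, 1 of 19 members was past 2-fold (MIR205), beside 1.57% of all probes, and with the GFP label 0 of 19, beside 0.865%. Among the 17 members that did not pass the fit, MIR574 had the largest difference, 0.75 (adjusted p = 0.109). It read 6.01 with LZTFL1 and 6.08 with GFP on the TGFβ arrays, and 5.45 and, undetected, 5.14 on the untreated arrays. Without the mean-variance trend neither MIR21 (adjusted p = 0.0892) nor MIR205 (adjusted p = 0.131) was called, and without the vector term 0 members were.

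The arrays labelled TGFβ also had the fewest detected probes, and median scaling in place of quantile normalization moved the median difference of all probes to -0.15, with MIR21 and MIR205 still called higher. SMAD7, an inhibitor that TGF-β signalling induces in many cells, was lower with the TGFβ label by 0.70 on its brighter probe (adjusted p = 0.0449) and by 0.19 on another (adjusted p = 0.740). The part of these differences in the member values was not tested.

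Between untreated H460 and HCC95 arrays, 8 of 20 members passed, 2 higher and 6 lower in H460, where 53% of all 16965 probes did, 25.4% higher and 27.6% lower. Of these 8, 5 were detected in only 1 line and entered only through it, so they had to differ; for them bounds against the detection floor are given, with no test. MIR205 was at least 17.7-fold lower in H460, with means of 4.60 in H460 and 9.63 in HCC95. MIR21 was at least 2.03-fold lower, with means of 4.75 in H460 and 6.50 in HCC95, and MIR25 at least 1.58-fold lower. The last 2 bounds rest mainly on 1 pair each. For MIR21 the bound was 1.09-fold between the arrays labelled LZTFL1 and 3.76-fold between those labelled GFP, and for MIR25 it was 2.38-fold and 1.05-fold. These bounds hold for background-corrected values. Without background correction the log2 difference was -2.97 for MIR205, -0.73 for MIR21 and -0.41 for MIR25. These 3 loci were undetected on both H460 arrays. The 4 squamous markers KRT5, KRT14, DSG3 and PKP1 were undetected there too. Their summed signal as deposited, before background correction and normalization, was 457 to 473 in H460 and 12325 to 16748 in HCC95. The part of squamous identity in the MIR205 difference was not tested, and as each line was grown as bulk culture, fewer expressing cells and less RNA per cell cannot be told apart.

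The other 3 of the 8 were read in both lines. MIR586 was lower in H460 (-1.26, SE 0.222, adjusted p = 2.91e-04) and so was MIR1228 (-1.19, SE 0.207, adjusted p = 2.77e-04). Without background correction these were -0.73 and -0.70, still called. MIR1282 differed by -0.92 (adjusted p = 0.00637; -0.36 without background correction), with values that overlapped between the lines, and this call was lost without the vector term (adjusted p = 0.126). The loci higher in H460 were MIR1204, by at least 5.68-fold, and MIR638, in the dynamin gene DNM2, by at least 1.29-fold. Both were undetected on every HCC95 array, and without background correction they differed by 1.36 and 0.28 on the log2 scale. MIRLET7D, undetected in H460, had a bound of -0.37 on the log2 scale. In the single pairs of H460 against HCC95, 6 of 22 members were past 2-fold with the LZTFL1 label, beside 21.6% of all probes, and 4 of 20 with the GFP label, beside 23%.

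Host genes were set beside the members because a locus probe could read the host's transcript. Probe positions and strands are not known here, so from one probe the transcripts cannot be told apart. MIR21 lies inside the span of VMP1, an autophagy gene on the same strand whose last part overlaps the MIR21 transcript. The VMP1 probe read 11.06 with TGFβ and 10.99 untreated in HCC95 labelled LZTFL1, against 11.14 and 10.96 in HCC95 labelled GFP. Its vector difference was -0.03 (adjusted p = 0.933, interval -0.28 to 0.23) and its TGFβ difference 0.12 (adjusted p = 0.630), where MIR21 had -1.96 and 0.96. Of 7 listed genes at the host and its neighbours on chromosome 17, 6 were tested, and limma called none with either label (0 higher and 0 lower each). At an unadjusted p under 0.05 there were 0 with the LZTFL1 label and 2 with the TGFβ label, beside 20.8% and 19.4% of all probes. Between lines 1 was called higher and 3 lower in H460 than in HCC95, where 53% of all probes passed.

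MCM7, the replication helicase subunit that hosts MIR25, read 12.59 with TGFβ and 12.49 untreated in HCC95 labelled LZTFL1, against 12.31 and 12.23 with GFP. Its vector difference was 0.27 (adjusted p = 0.145, interval 0.05 to 0.49). Its line difference, H460 minus HCC95, was -0.99 (adjusted p = 3.34e-05), and -0.67 on a dimmer probe (adjusted p = 0.0218), where 53% of all probes passed. SERF2, opposite in strand to MIR1282, had a vector difference of 0.35 on its bright probe (adjusted p = 0.0585) and -0.23 on another (adjusted p = 0.565). SERF2 was added outside the rule for host genes, after its values were seen. Between lines PVT1 followed MIR1204, at 11.43 and 11.30 in H460 labelled LZTFL1 and GFP and 5.98 to 6.50 in HCC95, a difference of 5.27 (adjusted p = 1.40e-11). SUPT3H, the host of MIR586, had a vector difference of 0.13 (adjusted p = 0.766) and a line difference of -0.51 (adjusted p = 0.0559) on its brighter probe. A dimmer SUPT3H probe had a line difference of -0.71. It was undetected in H460 and entered only through HCC95, so it had to differ. LRP1, the host of MIR1228, was detected on 3 arrays, all of HCC95, with a vector difference of -0.33 (adjusted p = 0.518). DNM2, the host of MIR638, differed between lines by -0.10 on its brighter probe (adjusted p = 0.754). ASTN1, the host of MIR488, was detected on no array.

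**Figure D4:**
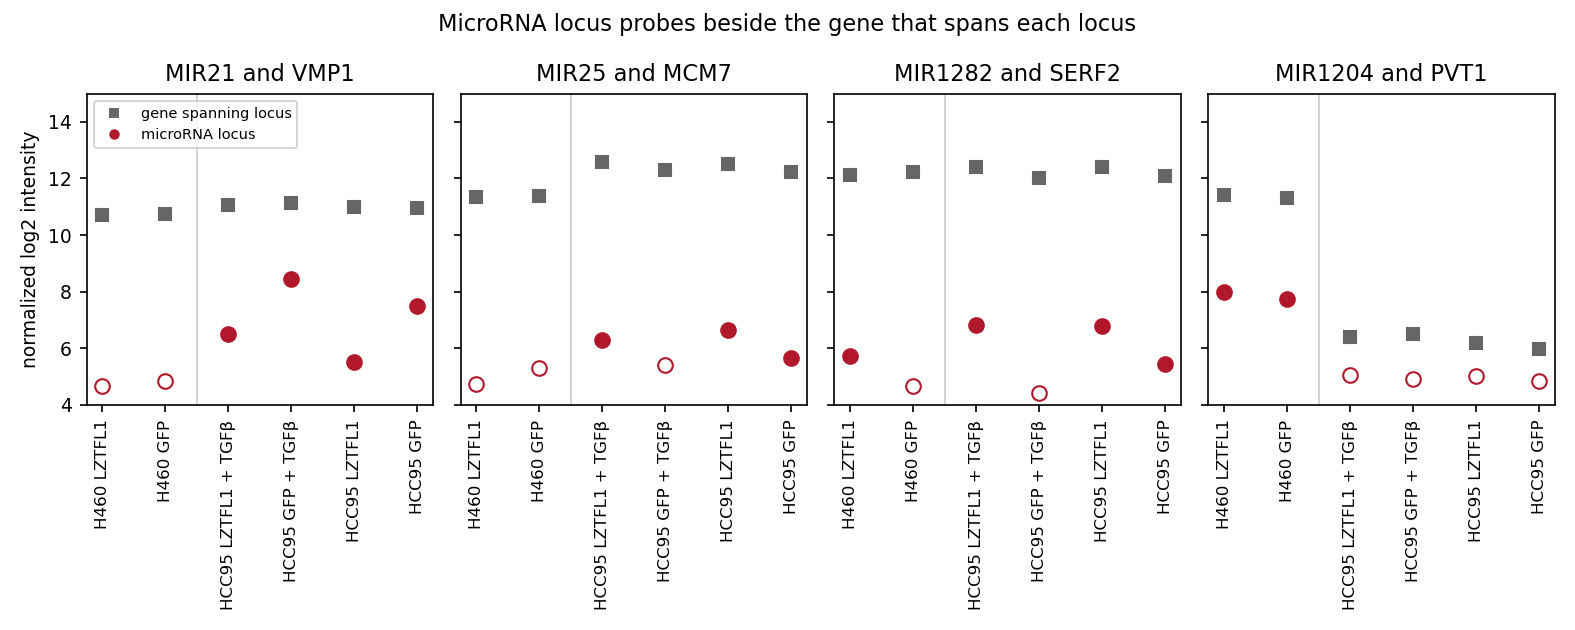
Normalized log2 intensity (y axis) of 4 member probes (red, open where not detected) and of the gene whose span holds the locus (grey squares) on the 6 arrays. VMP1 stays between 10.69 and 11.14 while MIR21 spans 4.65 to 8.43, and PVT1 and MIR1204 are both higher in H460.

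Of 25 listed genes of biogenesis and function, 20 were tested. With the LZTFL1 label, limma called 2 higher and 0 lower, where 5.7% of all probes passed: SRRT, which escorts primary transcripts to processing, by 0.48 (adjusted p = 0.0354), and KHSRP, which promotes maturation of let-7 and other microRNAs, by 0.56 (adjusted p = 0.0268). The hairpin-cutting enzymes DROSHA (0.13, adjusted p = 0.647) and DICER1 (-0.30, adjusted p = 0.375) did not pass. With the TGFβ label 0 of the 20 passed in either direction, where 5.03% of all probes passed. At an unadjusted p under 0.05 there was 1, beside 19.4% of all probes. Between H460 and HCC95 2 were higher and 10 lower in H460, where 53% of all probes passed. The list's median difference was -0.10 with the LZTFL1 label and -0.17 with the TGFβ label, beside 0.0046 and -0.011 over all probes.

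Textbook targets of mature miR-21 were read as a further description, since the array does not measure the mature form. Of 15 listed, 10 were tested. With the LZTFL1 label 3 passed, where 5.7% of all probes did. Of these 1 was higher, SPRY2, a brake on receptor kinase signalling, by 0.69 (adjusted p = 0.0440). Lower were BCL2, a survival factor, by -1.32 (adjusted p = 2.63e-05), and SERPINB5, the serpin maspin, by -0.55 (adjusted p = 0.0093). PDCD4 differed by -0.17 (adjusted p = 0.554). With the TGFβ label 0 were higher and 5 lower, among them MARCKS (-0.88) and TPM1 (-0.86, adjusted p = 0.0012), where 2.38% of all probes were lower. Between H460 and HCC95 1 was higher and 5 lower in H460, where 53% of all probes passed. The median difference over the 10 was -0.22 with the LZTFL1 label and -0.56 with the TGFβ label. Of 28 listed host transcripts of microRNA loci, 12 were tested in HCC95 and limma called 0 with either label, where 5.7% and 5.03% of all probes passed. At an unadjusted p under 0.05 there was 1 with each label, beside 20.8% and 19.4% of all probes. Of 15 tested between lines 4 were higher and 5 lower in H460, where 53% of all probes passed. In the shared and interaction fits limma called 0 genes of each of these 4 lists. At an unadjusted p under 0.05 these fits had at most 4 of any list, beside 9.65% and 9.57% of all probes.

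The probes whose pattern over the 6 arrays was most like that of MIR21, by Pearson correlation among 4893 probes with 1 symbol and an SD of at least 0.5, were STC2 (0.999), SOCS2 (0.998), NTF4 (0.996), SPIDR (0.992), FREM2 (0.992), DAPL1 (0.990), GRB10 (0.989) and DEAF1 (0.988). They are the highest of many over only 6 points that share lines and vectors, so they describe these arrays. STC2, a secreted stanniocalcin, read 10.47 with TGFβ and 9.96 untreated in HCC95 labelled LZTFL1, against 11.37 and 10.97 in HCC95 labelled GFP. SOCS2, a suppressor of cytokine signalling, read 5.77 and 5.22 with the LZTFL1 label and 6.92 and 6.38 with the GFP label, in the same order of arrays. In H460 STC2 read 9.56 with LZTFL1 and 9.71 with GFP.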

How the data were processed

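Human lung cancer cell RNA was read on 6 single-colour Illumina arrays, 1 per group, grouped by their labels. The authors deposited probe intensity values that were not normalized, each with a detection p-value, and a table of processed intensity values. GenomeStudio 2011.1 is named per the submitters' processing notes, without settings. The step between deposited detection p-values was 1 in 770. Processed values had a median of 13.1 on every array and ranked probes as the signals of their own arrays did (rank correlation 1); their background correction and normalization stay unknown.

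The steps run here used limma 3.58.1 (R 4.3.3): normexp background correction from the detection p-values, an offset of 16, quantile normalization and log2. The offset understates folds of dim probes. Of 47323 probes, 30113 had 1 gene symbol, 8 had several and 17202 were not listed in the platform annotation, and 30074 were matched by gene identifier to RefSeq. Probes entered a fit if detected (p under 0.01) on at least 2 of its arrays, and eBayes used a mean-variance trend. The calculation was tested on simulated data. The number of arrays limits the precision, and intensities carry no counting error.

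Members and gene lists were chosen with earlier results of these data known. Members named are MIR21, MIRLET7D, those called or past 2-fold, the 6 brightest, at most 6 each way between lines and 3 on each side of the detection threshold. Others named were chosen after their values were seen. Alternatives were background correction, offset, scaling, the processed values, the filter, the trend, the covariate and leaving out a vector pair.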

Additional observations from a re-analysis of the deposited data

Results flagged for a closer look

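MIR564 is outside the 22 members because it was detected on 1 array only. Its normalized log2 intensity was 6.29 on the H460 array labelled LZTFL1, the highest among the 22 microRNA locus probes detected on exactly 1 array, and at most 5.56 on the other 5 arrays. It is given because the signal lies in a probe that no fit with the detection filter used. The probe entered only shares over all probes in single pairs and the fits with no detection filter. There is no second array of that group.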

How the results depend on the processing

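No paired analysis was possible because the replicate number is the same in all 6 groups of 1 array and forms no block; the fits match arrays by line, treatment or vector label instead. Of 247 recomputed values none was reversed, 13 lost a call, 7 gained one and 28 moved by more than 1.5 times as a count or past the spread between probes of a gene as a difference. The other 199 include counts that moved less, such as the members called for LZTFL1 in HCC95, which were 3 without background correction and 3 with median scaling. Counts could not be labelled reversed, and the filter, trend and covariate settings left each difference unchanged. The processed values nearly repeated the main ones, with -1.96 for MIR21 in the HCC95 vector fit under both. The absence of reversals therefore tests little under these settings. Members called for LZTFL1 in HCC95 (4) were 2 when probes had to be detected on every array (MIR1282 and MIR25 were then not tested), 2 without the trend and 0 without the treatment term. For the TGFβ label (2) they were 0 without the trend and 0 without the vector term. For the shared effect (0) they were 2 with median scaling, 1 with no detection filter and 4 without the H460 pair. The last setting is the HCC95 vector fit again, so the calls gained there are not new results. For H460 minus HCC95 (8) they were 2 when detected on every array, and for the interaction (0) they were 2 with no detection filter. Alternatives for the counts of members past 2-fold in single pairs, and for named members, were chosen after seeing the data. Members past 2-fold without background correction were 1 in each HCC95 vector pair, 0 for TGFβ with LZTFL1 and 2 in each pair between lines. Offset 50 left 1 for LZTFL1 with TGFβ, and both it and median scaling 0 for TGFβ with LZTFL1. The cause was not tested. Over all probes, calls for LZTFL1 in HCC95 (889) were 487 without background correction, 87 without the trend and 5 without the treatment term. For the TGFβ label (784) they were 449, 37 and 13 (without the vector term). For the shared effect (1) they were 11 with median scaling, 19 with no filter, 889 without the H460 pair and 0 in 6 settings. For the interaction (37) they were 15 without background correction, 6 with offset 50, 20 with median scaling, 110 with no filter and 0 without the trend. Median scaling moved the median interaction of all probes to 0.21. Dim probes near the floor of 5.33 to 5.70 limit every count.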

Other observations

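Among the 22 microRNA locus probes detected on exactly 1 array, MIR221 and MIR222, neighbouring loci whose microRNAs share a seed and repress the cell cycle inhibitor CDKN1B, were detected on different arrays. MIR221 read 6.02 on the HCC95 array labelled GFP and TGFβ and at most 5.46 elsewhere, and MIR222 read 5.72 on the H460 array labelled LZTFL1 and at most 4.92 elsewhere. The brightest probe of the host transcript MIR99AHG, which spans MIR125B2, read 7.19 in H460 labelled LZTFL1 and 7.15 in H460 labelled GFP. This probe was undetected on all 4 HCC95 arrays. Another MIR99AHG probe was detected on no array, and a further one only on the H460 array labelled LZTFL1, at 5.70. MIR125B2 itself stayed between 5.30 and 5.69 on all 6 arrays. MIR130A read 6.28 on the H460 array labelled LZTFL1 and 5.59 on the H460 array labelled GFP.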
